A study of Mus musculus with 12 samples.

Results

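The comparison described here sets the KDM6B transgene alone against Vav Cre in sorted mouse blood progenitors, across all measured genes. It rests on 6 of the 12 libraries of the study, 3 labelled KDM6B OE and 3 labelled Vav Cre, chosen by their genotype labels and not by any measured value. The genotype given for KDM6B OE is Vav human KDM6B, a human gene driven by Vav sequences, which are active throughout blood cells. The genotype given for the control is Vav Cre, the recombinase under the same kind of driver, with no floxed gene named. Cre is named in the control label only, so the transgene and the absence of Cre cannot be told apart. Both groups were untreated C57BL/6 mice, and the RNA came from LSK cells of the bone marrow, the sorted fraction that holds blood stem cells and early multipotent progenitors. The labels give neither age nor sex. Whether libraries within a group are different animals is not stated either, and the p-values cover the spread among these libraries alone, part of which could be technical.

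KDM6B (JMJD3) is a demethylase of lysine 27 on histone H3 and erases the mark that Polycomb repressive complex 2 writes on silenced genes. In myeloid cells it is known as a gene switched on by inflammatory signals, and its relative KDM6A (UTX) acts on the same mark. Much of the difference found below lay in immediate early genes. Cells switch these on within minutes of growth factor, cytokine or stress signals, the handling of tissue included, and their messages are short-lived. Many of them encode transcription factors (AP-1, Egr, Nr4a and Krüppel-like factors) or proteins that turn the same signals off again (Dusp phosphatases, Zfp36, Socs3).

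Each library held 22256354 to 25922064 reads on the listed genes, so depth hardly differed between the groups. Levels are CPM (counts scaled to library size by the authors), and differences are log2 differences of CPM + 1 (KDM6B OE minus Vav Cre), with their SE, from limma. Replicates were less alike in the control than in the transgenic group, with a median SD per gene of 0.28 against 0.14 on the log2 scale. A gene was counted as standing apart where it lay more than 1 log2 unit above or below both other libraries of its group. There were 478 such genes in Vav Cre 3, 319 in Vav Cre 2 and 283 in Vav Cre 1, against 40, 49 and 83 in KDM6B OE 1, 2 and 3. Vav Cre 1 alone carried transcripts of the Y chromosome, such as Ddx3y at 79.3 CPM, with Xist at 3.52 CPM. In the remaining 5, Ddx3y did not exceed 0.732 CPM and Xist was at 335 to 462 CPM, so sex differed within the control group, and its 3 libraries cannot all come from 1 animal. Counts below are therefore also given without single libraries. The LSK label was checked on Kit and Ly6a, for which it is named. Cd34 and Flt3 do not define it and are given beside them. The lineage-negative part of the label is not covered by these genes. Kit, the stem cell factor receptor, stood at 356 to 614 CPM, Cd34 at 821 to 1053 CPM, Flt3 at 344 to 501 CPM and Ly6a (Sca-1) at 78.2 to 113 CPM in the 6 libraries.

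Mouse Kdm6b (chromosome 11, 69398508 to 69413675, GRCm38) was low in both groups. It stood at 6.37, 6.54 and 7.91 CPM in Vav Cre and at 12.5, 7.79 and 10.4 CPM in KDM6B OE. Vav Cre 3 lay just above KDM6B OE 2, so the groups overlapped. The means were 6.94 ± 0.844 and 10.2 ± 2.37 CPM (SD, n = 3 each; exact two-sided permutation p = 0.2, where 0.1 is the smallest possible). The log2 difference of 0.48 ± 0.25 did not pass (limma, adjusted p = 0.352), and with the trend on transcript length and GC content removed it was 0.02. The table lists mouse genes, and the level of the human transgene was not analysed here. Reads that it may share with Kdm6b or with the antisense gene Kdm6bos could not be told apart. Tet2 (chromosome 3, 133463679 to 133545139), deleted in other groups of the study, stood at 82.9, 66.2 and 97.1 CPM in Vav Cre and 64.9, 87.6 and 84.5 CPM in KDM6B OE. The groups overlapped, and the difference was -0.05 ± 0.18 (adjusted p = 0.911; exact permutation p = 0.9). Its sign turned without Vav Cre 3 (0.08) or without KDM6B OE 1 (0.08).

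Of 12549 genes tested, 22 passed an adjusted p of 0.05 (0.175%). In KDM6B OE 21 were higher (0.167%) and 1 was lower (0.00797%). The 6 with the largest differences were Fos, Klf2, Egr1, Dusp1, Klf6 and Zfp36, all higher by more than 2.5 log2 units. In each of the 22 the 3 libraries of one group lay beyond the 3 of the other, which was also true of 22.9% of all genes tested. At an unadjusted p under 0.05, 2068 genes differed. The number of calls depended on single libraries. Of the 22 calls, 10 held without Vav Cre 1, 17 without Vav Cre 2 and 22 without Vav Cre 3. Without KDM6B OE 1, 2 or 3, in that order, 4, 3 and 9 of them held. Dusp1, Klf6 and Klf2 passed in each of these fits and in each other setting tried. The direction of all 22 was the same in each of these settings. Without Vav Cre 3 the total rose to 1295 genes, 962 higher (7.67%) and 333 lower (2.65%). The cause of that dependence was not tested.

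**Figure D1:**
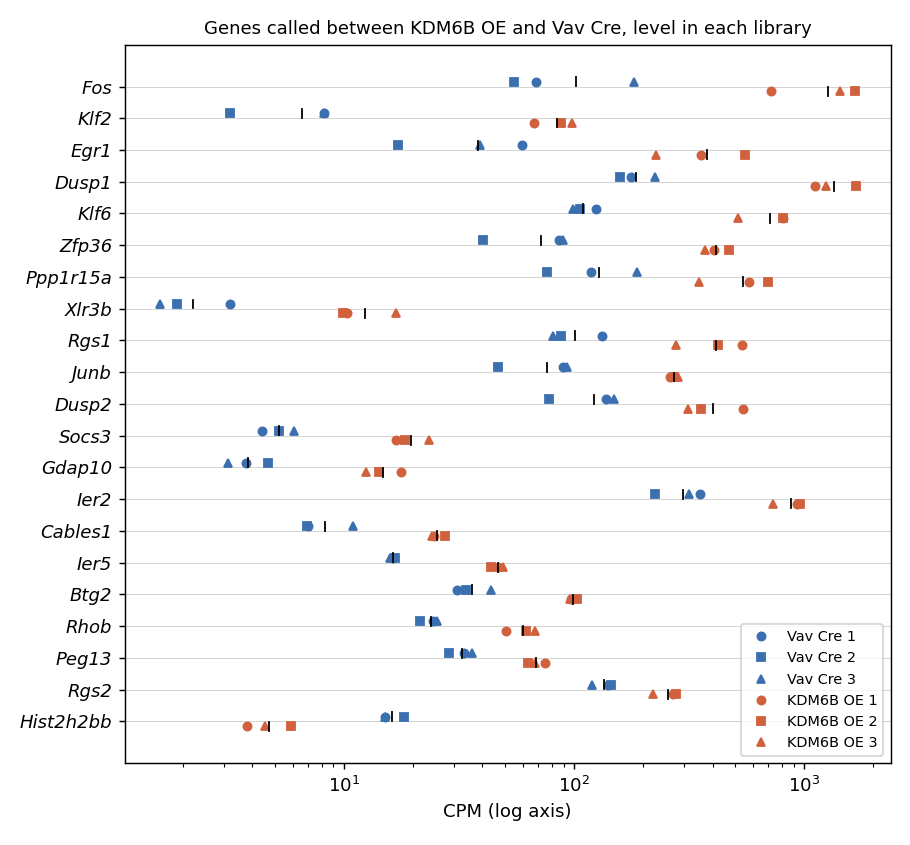
CPM in each of the 6 libraries (log axis) for 21 of the 22 genes that passed, ordered by log2 difference; blue marks are Vav Cre, orange marks KDM6B OE, the marker shape gives the replicate number and the black ticks are group means. The 2 groups do not overlap for any gene shown, and Hist2h2bb is the gene that is lower in KDM6B OE.

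Promoter sequences are shown for some early genes that hold the cyclic AMP response element (CRE, letters TGACGTCA) or its core. Factors of the CREB and ATF families bind the CRE. Dusp1, Btg2 and Ppp1r15a hold it in full, and Fos and Junb hold the core only. RefSeq windows of 250 bases before to 50 after the gene start (GRCm38.p6) matched 15 of the 22 genes. Ier2, Rgs1, Egr1, Peg13, Cables1 and Hist2h2bb were among those with no entry. Both strands were searched, and the core (letters TGACG) is contained in the full element. Stretches are given 5′ to 3′ on the gene's strand, with core sites in either orientation in capitals, so that a full element appears as 8 capitals.
Dusp1, chr17:26508573-26508672, minus strand, bases -200 to -101 from the start: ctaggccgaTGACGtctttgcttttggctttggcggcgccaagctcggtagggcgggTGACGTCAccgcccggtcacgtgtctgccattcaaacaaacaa
Btg2, chr1:134079256-134079355, minus strand, bases -200 to -101 from the start: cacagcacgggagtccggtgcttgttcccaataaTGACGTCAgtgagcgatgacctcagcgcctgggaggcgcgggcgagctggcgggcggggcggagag
Ppp1r15a, chr7:45526269-45526328, minus strand, bases -60 to -1 from the start: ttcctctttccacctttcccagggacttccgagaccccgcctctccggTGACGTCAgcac
Fos, chr12:85473740-85473839, plus strand, bases -150 to -51 from the start: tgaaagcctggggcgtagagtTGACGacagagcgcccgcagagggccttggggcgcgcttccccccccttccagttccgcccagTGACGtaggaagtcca
Junb, chr8:84978799-84978898, minus strand, bases -150 to -51 from the start: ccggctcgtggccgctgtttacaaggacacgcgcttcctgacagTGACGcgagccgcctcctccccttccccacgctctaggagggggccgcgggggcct

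The full element was found in 3 of the 15 windows (Dusp1, Btg2 and Ppp1r15a), against 3.24% of the 9561 tested genes with a window and 1.88% of 27025 windows in all. The core was found in 8 of the 15 (these 3, Klf2, Fos, Junb, Rgs2 and Dusp2), against 32.1% of the tested genes' windows. The AP-1 element (letters TGANTCA) was in none of the 15 and in 4.92% of the tested genes' windows. The CArG box, bound by serum response factor, was in 1 of the 15 (Zfp36) and in 1.27% of the tested genes' windows. These are matches of letters in a window and were not set against binding data. Bases more than 250 before the start were not searched, so a gene without a match here may hold the element further away.

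AP-1 transcription factors are dimers of Fos, Jun and ATF family proteins. Of 12 subunits listed, 10 had levels high enough to test. Of these, 2 were called higher, none was called lower, and the median difference was 1.59, against 0.04 for all genes tested. Over all genes tested, 0.167% were called higher and 55% had a positive difference. The counts of each list below are to be read against these shares. Fos (chromosome 12, 85473890 to 85477273) stood at 68.6, 54.6 and 182 CPM in Vav Cre and at 717, 1666 and 1431 CPM in KDM6B OE. The lowest transgenic library, KDM6B OE 1, was still well above the highest control, Vav Cre 3. The difference was 3.75 ± 0.43 (adjusted p = 0.00969), and the call ended when Vav Cre 1, or KDM6B OE 2, or KDM6B OE 3 was left out, at adjusted p values up to 0.0794. Junb stood at 89.9, 46.8 and 93.1 CPM in Vav Cre against 260, 271 and 284 CPM in KDM6B OE. The transgenic libraries were close together, and the difference was 1.88 ± 0.23 (adjusted p = 0.0168). Junb shares exon sequence with Prdx2 on the opposite strand, and the library kit does not mark strand. Jun, the partner of Fos in the classical dimer, was the most abundant subunit at 523 to 1073 CPM in Vav Cre and 1838 to 2954 CPM in KDM6B OE. Its difference of 1.57 ± 0.26 missed the threshold (adjusted p = 0.0696), although the groups did not overlap. Jund was at 95.1, 61.7 and 259 CPM against 544, 686 and 375 CPM (2.16 ± 0.44, adjusted p = 0.135). Atf3, a stress-induced subunit, was at 0.127 to 0.351 CPM in Vav Cre and at 17.4, 9.59 and 2.30 CPM in KDM6B OE. The transgenic libraries spread widely (2.79 ± 0.54, adjusted p = 0.122). Atf3 passed the 1 CPM filter through the transgenic libraries alone, so its difference could only come out positive. It is nevertheless part of the AP-1 median. Fosb overlapped between the groups, because KDM6B OE 1 at 8.37 CPM lay below Vav Cre 2 and 3 (1.62 ± 0.58, adjusted p = 0.252).

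Egr and Nr4a genes encode zinc finger and orphan nuclear receptor factors that are induced with AP-1. Of 5 listed in the table, 3 could be tested, 1 was called, and the 3 had a positive difference. Egr1 (chromosome 18, 34859823 to 34864984) stood at 59.3, 17.1 and 38.9 CPM in Vav Cre and at 355, 553 and 226 CPM in KDM6B OE. The lowest transgenic library, KDM6B OE 3, was more than 3 times the highest control, Vav Cre 1. The difference was 3.34 ± 0.42 (adjusted p = 0.0168). Nr4a1 ranged from 1.42 to 6.85 CPM in Vav Cre and was at 52.8, 23.6 and 8.97 CPM in KDM6B OE (2.21 ± 0.61, adjusted p = 0.225). Nr4a2 was at 3.16 to 3.99 CPM against 9.29 to 14.6 CPM (1.41 ± 0.26, adjusted p = 0.11).

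Among the Krüppel-like factors, which include regulators of quiescence and cell trafficking, the difference was uneven. Of 10 tested, 2 were called higher, 5 had a positive and 5 a negative value, and the median was 0.01. Klf2 (chromosome 8, 72319033 to 72321656) was at 8.19, 3.20 and 8.22 CPM in Vav Cre and at 67.3, 88.0 and 97.7 CPM in KDM6B OE. Its difference was 3.57 ± 0.31 (adjusted p = 0.00265). Klf6 (chromosome 13, 5861482 to 5870394) was at 124, 106 and 98.8 CPM against 806, 810 and 517 CPM, 2.66 ± 0.18 (adjusted p = 0.000437). Both genes were narrow among the controls relative to the gap between the groups. Klf4 was below the 1 CPM filter in every Vav Cre library, at 0.297 to 0.659 CPM. In KDM6B OE it was at 3.48, 13.5 and 4.45 CPM (2.24 ± 0.43, adjusted p = 0.122). It was tested only because the transgenic libraries passed the filter, so its difference could only come out positive.

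Of 12 feedback inhibitors of MAP kinase signalling tested, 2 were called higher, 7 did not overlap in the upward direction (11.7% of all genes tested), and the median was 0.85. Dusp1, a phosphatase that switches off p38, JNK and ERK kinases, gave the smallest p of any gene. It was at 176, 159 and 224 CPM in Vav Cre and 1112, 1676 and 1245 CPM in KDM6B OE, 2.84 ± 0.18 (adjusted p = 0.000415). The gene (chromosome 17, 26505590 to 26562128) shares exon sequence with Ergic1 on the opposite strand. The Dusp1 promoter stretch printed above lies inside this GENCODE span, because RefSeq places the start at another base. Dusp2 was at 137, 78.0 and 149 CPM against 540, 357 and 312 CPM (1.74 ± 0.26, adjusted p = 0.0453). Spry1, an inhibitor of receptor tyrosine kinase signalling, was at 6.68 to 15.4 CPM against 25.1 to 44.3 CPM and missed the threshold (1.53 ± 0.32, adjusted p = 0.15). Dusp6, a target and inhibitor of ERK, differed by 0.92 ± 0.20 (adjusted p = 0.167).

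Of 9 genes for mRNA decay and antiproliferative factors, 2 were called higher, 6 did not overlap upward (11.7% of all genes tested) and 1 downward (11.2%), and the median was 0.74. Without the trend on transcript length and GC content the median was 0.50. Zfp36 (tristetraprolin), which binds AU-rich messages of cytokines and directs their decay, was at 85.6, 40.3 and 89.9 CPM in Vav Cre. In KDM6B OE it was at 404, 471 and 370 CPM, so that each transgenic library was several times any control (2.59 ± 0.27, adjusted p = 0.00892). Its exons (chromosome 7, 28376784 to 28380253) overlap Gm44710 on the opposite strand. Btg2, an antiproliferative partner of the deadenylase complex, was at 31.1, 33.8 and 43.5 CPM against 97.4, 103 and 96.1 CPM (1.44 ± 0.16, adjusted p = 0.00933). The 3 transgenic values of Btg2 were nearly equal. Its relative Btg1 missed the threshold at 82.5 CPM or less in Vav Cre against 120 to 179 CPM in KDM6B OE (1.07 ± 0.18, adjusted p = 0.0707). Tob1 differed by 1.01 ± 0.20 (adjusted p = 0.134) and Zfp36l2 by 0.74 ± 0.16 (adjusted p = 0.165).

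A further 18 early response genes were tested. Of these, 4 were called higher (0.167% of all genes tested) and 15 were positive (55% of all genes tested), and the median was 0.76. Ier2 was at 353, 225 and 315 CPM in Vav Cre and 927, 960 and 735 CPM in KDM6B OE (1.57 ± 0.18, adjusted p = 0.00969). Ier5 was at 16.3, 16.6 and 15.9 CPM against 46.8, 43.5 and 49.2 CPM, with little spread in either group (1.46 ± 0.16, adjusted p = 0.00948). Rhob, a small GTPase of endosome traffic, was at 24.5, 21.5 and 25.5 CPM against 50.5, 61.8 and 67.9 CPM (1.29 ± 0.17, adjusted p = 0.0227). Ppp1r15a (GADD34), which restarts translation by dephosphorylating eIF2α, was at 118, 76.2 and 189 CPM against 578, 697 and 350 CPM (2.12 ± 0.32, adjusted p = 0.0453). Its exons overlap Tulp2 on the opposite strand. The integrated stress and unfolded protein response list had 18 tested members, none called and a median of 0.08. Among genes of the early list that were not called, Sik1 differed by 1.62 ± 0.33 (adjusted p = 0.136), Plk2 by 2.10 ± 0.59 (adjusted p = 0.235) and Myc by 0.42 ± 0.14 (adjusted p = 0.242).

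**Figure D2:**
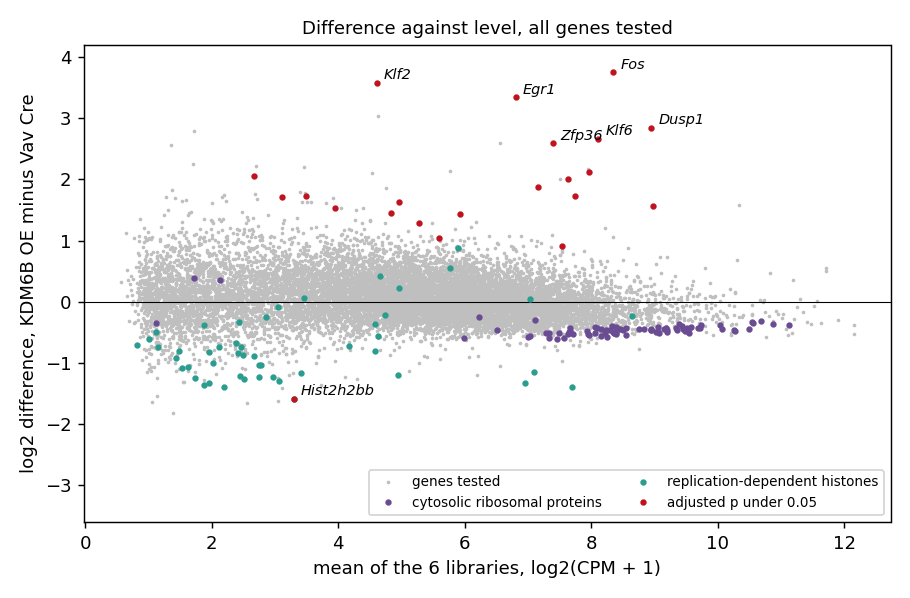
The log2 difference of each of 12549 genes tested (y axis) against its mean level over the 6 libraries (x axis), with genes at an adjusted p under 0.05 in red, cytosolic ribosomal proteins in purple and replication-dependent histones in green. The 22 called genes lie at low, middle and high levels; the ribosomal proteins form a narrow band around a median of -0.46, and most histones lie below 0.

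Inhibitors of other signalling pathways were among the called genes. Rgs1 and Rgs2 encode GTPase activators that shorten signalling from G protein-coupled receptors, and both were called among 7 Rgs genes tested. Of the 7, 4 were positive and 3 negative, and the median of 0.31 fell to 0.06 when Vav Cre 2 was left out and reached 0.50 when Vav Cre 3 was. Rgs1 was at 133, 88.1 and 80.9 CPM in Vav Cre and at 538, 421 and 277 CPM in KDM6B OE (2.01 ± 0.25, adjusted p = 0.0168). Rgs2 was at 141, 145 and 119 CPM against 269, 279 and 220 CPM (0.92 ± 0.14, adjusted p = 0.0453), the smallest called difference. Socs3, which blocks cytokine receptor signalling through STAT3, was the only called gene among 13 SOCS genes and STAT5 targets (median 0.20). It was at 4.41, 5.22 and 6.06 CPM against 16.9, 18.4 and 23.5 CPM (1.72 ± 0.24, adjusted p = 0.028). Socs2, by contrast, had a lower value in each transgenic library, 14.5 CPM or less against 19.2 to 30.6 CPM, without passing (-0.79 ± 0.23, adjusted p = 0.236).

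NF-kB subunits and inhibitors, which carry inflammatory signals to the nucleus, gave no call among 15 tested. Their values were positive in 14, against 55% of all genes tested, with a median of 0.43. That median moved between 0.22 without Vav Cre 2 and 0.64 without Vav Cre 1, and was 0.23 with the length and GC trend removed. The smallest p among them belonged to Nfkbiz, at 11.9 to 15.7 CPM in Vav Cre and at 81.9, 50.5 and 30.7 CPM in KDM6B OE (1.86 ± 0.31, adjusted p = 0.0797). Nfkbid and Tnfaip3 (A20) differed by 1.11 ± 0.23 and 1.06 ± 0.31 (adjusted p = 0.148 and 0.236). Of 9 chemokines and cytokines tested none was called. Ccl4 came closest, at 38.0, 18.7 and 22.3 CPM against 190, 101 and 76.0 CPM (2.13 ± 0.34, adjusted p = 0.0574). Its neighbour Ccl3 overlapped between the groups (1.28 ± 0.40, adjusted p = 0.241). Toll-like receptor signalling genes centred near 0 (18 tested, none called, median 0.05). S100a8, an alarmin that is also a neutrophil gene, was low throughout, at 0.212 to 0.686 CPM against 2.51 to 5.29 CPM (1.82 ± 0.33, adjusted p = 0.0948). It too passed the 1 CPM filter through the transgenic libraries alone, so its difference could only come out positive. Of 40 interferon response genes none was called and 30 had a positive value, against 55% of all genes tested. Oas3, a sensor of double-stranded RNA, differed by 0.78 ± 0.24 (adjusted p = 0.241). Of 17 heat-shock chaperones none was called, and the median of 0.44 came down to 0.18 when Vav Cre 1 was left out and to 0.19 when KDM6B OE 2 was. Dnajb1, which assists Hsp70, was at 110 to 119 CPM against 193 to 343 CPM (1.10 ± 0.19, adjusted p = 0.0943). Mcl1, a short-lived survival protein, led the 24 p53 targets and apoptosis genes, none of which was called, at 156 to 205 CPM against 292 to 336 CPM (0.83 ± 0.13, adjusted p = 0.0574).

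Other called genes fell outside the early response. Cables1, which links cyclin-dependent kinases to tyrosine kinases, was at 6.91 to 10.9 CPM against 24.5, 27.4 and 24.2 CPM (1.53 ± 0.23, adjusted p = 0.0453). Exons of 2 genes on the opposite strand, Gm6277 and Mir1901, overlap it. Peg13, an imprinted non-coding RNA annotated within an intron on chromosome 15, was at 33.3, 28.5 and 36.0 CPM against 74.7, 62.9 and 67.6 CPM (1.05 ± 0.15, adjusted p = 0.0452). Gdap10, a non-coding RNA on chromosome 12, was at 3.12 to 4.67 CPM against 12.5 to 17.7 CPM (1.71 ± 0.25, adjusted p = 0.0452). Xlr3b, a lymphoid gene of the X chromosome with close copies in the same family, was at 1.58 to 3.18 CPM against 9.92 to 16.8 CPM (2.05 ± 0.31, adjusted p = 0.0453). Reads of such copies could have been split or lost in counting, so Xlr3b is uncertain. The call of Xlr3b ended in 12 settings, more than for any other called gene.

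Hist2h2bb, a replication-dependent histone H2B gene, was the single gene called lower. It was at 15.03, 18.3 and 15.02 CPM in Vav Cre and at 3.79, 5.90 and 4.53 CPM in KDM6B OE, and fell by 1.59 ± 0.24 on the log2 scale (adjusted p = 0.0453). Exons of Gm20628 and Gm42743 overlap it, the latter on the same strand. With the length and GC trend removed the call ended (adjusted p = 0.0508). Histone genes of this class are transcribed in S phase, and most of their messages carry no poly(A) tail, whereas the libraries were made from poly(A) RNA. Of 49 tested, 43 had a lower value in KDM6B OE and 34 did not overlap (11.2% of all genes tested did not overlap in this direction), with a median of -0.82. Members differed widely: Hist1h1a was at 38.2 to 64.6 CPM against 17.6 to 21.1 CPM (-1.19 ± 0.23, adjusted p = 0.115), whereas the range over the list reached 0.87. The per-library medians were 0.00, 0.19 and -0.17 in Vav Cre and -1.08, -0.65 and -0.77 in KDM6B OE, relative to the Vav Cre mean. Many of these genes are near-identical copies, so single members are uncertain.

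Genes of the G2 and M phases had lower values together without a call. Of 42 tested, 41 were negative and 26 did not overlap downward, with a median of -0.37. Of all 12549 genes tested, 5653 were negative and 11.2% did not overlap downward. Cenpf, a kinetochore protein of G2 and mitosis, was at 231, 280 and 247 CPM in Vav Cre and at 158, 162 and 168 CPM in KDM6B OE (-0.63 ± 0.12, adjusted p = 0.11). Top2a, which untangles chromosomes, was at 687, 793 and 625 CPM against 456, 500 and 518 CPM (-0.51 ± 0.13, adjusted p = 0.199). Mki67, a marker of cycling cells, was at 575 to 633 CPM against 448 to 467 CPM (-0.40 ± 0.11, adjusted p = 0.218). The transgenic libraries lay close together below the controls for the 3 genes. Over the whole list they were less even. Relative to the Vav Cre mean, the per-library medians were -0.47, -0.43 and -0.23 in KDM6B OE 1, 2 and 3. In Vav Cre 1, 2 and 3 they were -0.06, 0.17 and -0.09. Genes of S phase and replication did less of this, with 23 of 40 negative and a median of -0.09, and the difference between the lists was not tested. In bulk RNA, fewer cells of a type or phase and less RNA per cell cannot be told apart. Without Vav Cre 3, 16 of the 42 G2 and M genes were called lower, against 2.65% of all genes in that fit, and none was called when any other library was left out. Over the settings tried, the median stayed between -0.43 and -0.31.

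Ribosomal protein and respiratory chain genes had lower values by a small, even amount. Of 81 cytosolic ribosomal protein genes, 79 were negative and 76 did not overlap downward, none was called, and the median was -0.46. Among all 12549 genes tested, 5653 were negative and 11.2% did not overlap downward. Rplp2 was at 185, 284 and 192 CPM in Vav Cre and at 146, 137 and 141 CPM in KDM6B OE (-0.61 ± 0.17, adjusted p = 0.221). Of 74 nuclear genes of the respiratory chain, 73 were negative and 51 did not overlap downward, none was called, and the median was -0.40. Atp5e, a small subunit of ATP synthase, was at 135 to 193 CPM against 95.7 to 108 CPM (-0.58 ± 0.16, adjusted p = 0.218). Vav Cre 2 stood above the Vav Cre mean in both lists, with a median of 0.34 for ribosomal proteins and 0.33 for the respiratory chain. Without Vav Cre 2 the median differences were -0.29 and -0.22, and none of either list was called. Without Vav Cre 3, 41 ribosomal protein and 13 respiratory chain genes were called lower, where 2.65% of all genes were. No other library left out gave a call in either list.

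Transcript length moved with these lists. The median of the longest transcript was 1094 bases for the ribosomal protein genes, 1186 for the respiratory chain genes and 618 for the histones. Over the 12073 genes with a length (96.2% of those tested), the difference correlated with length at a Spearman rho of 0.31 and with GC content at 0.24, across genes that share the same 6 libraries. Controls differed among themselves in this: relative to the Vav Cre mean, rho with length was -0.25 in Vav Cre 2 and 0.19 in Vav Cre 3, and rho with GC content was -0.32 and 0.34. In KDM6B OE rho with length was 0.22 to 0.32. The part of length and GC content in these results was not tested. With the trend of each library on length and GC content removed, an alternative chosen after seeing the data, the median was -0.29 for ribosomal proteins, -0.21 for the respiratory chain, -0.71 for histones and -0.40 for G2 and M genes. The AP-1 median was 1.34 in the same fit, in which 34 genes were called, 21 of the 22 among them.

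**Figure D3:**
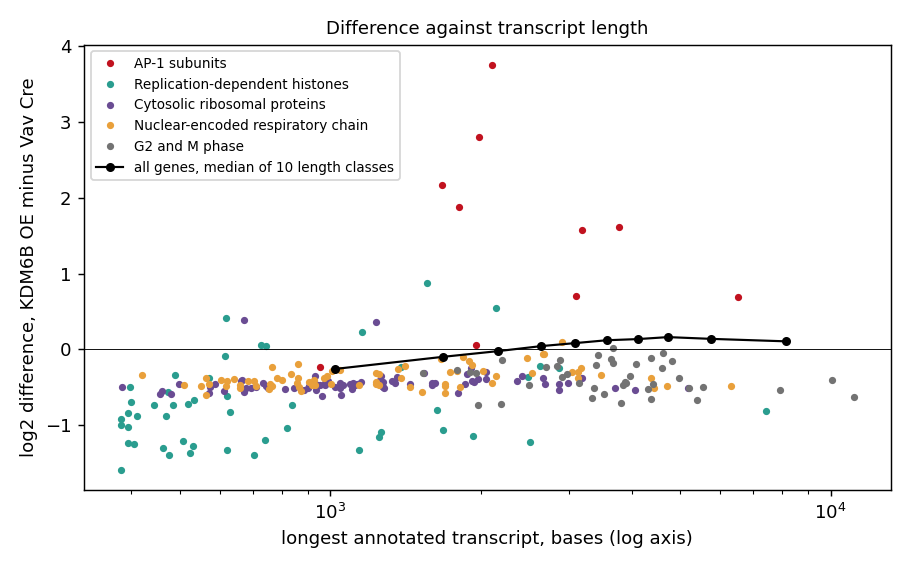
The log2 difference (y axis) against the longest annotated transcript in bases (log x axis) for the members of 5 lists, with the median difference of all genes in 10 length classes as the black line. The line runs from -0.26 in the shortest class to 0.11 in the longest; the ribosomal protein and respiratory chain genes lie mostly among short transcripts, histones shorter still, and most AP-1 subunits lie above the line, 6 of the 10 at transcripts shorter than 2167 bases.

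The machinery that writes and erases the mark KDM6B acts on gave no call. Of 13 genes for H3K27 demethylases and PRC2, none was called, and the median was 0.12. Kdm6a was at 52.0, 77.6 and 76.6 CPM in Vav Cre and at 95.6, 102 and 81.3 CPM in KDM6B OE (0.45 ± 0.18, adjusted p = 0.277). Ezh2, the catalytic subunit of PRC2, was at 173, 186 and 164 CPM against 140 CPM in each transgenic library (-0.31 ± 0.11, adjusted p = 0.252). Of 22 PRC1 and BAP1 genes, which act on histone H2A ubiquitin, none was called, and Cbx6 had the smallest p (0.59 ± 0.14, adjusted p = 0.191). Of 9 Tet and Dnmt enzymes none was called. Dnmt3a was at 72.5, 44.0 and 141 CPM against 142, 148 and 143 CPM, with Vav Cre 3 nearly at the level of the transgenic libraries (0.90 ± 0.33, adjusted p = 0.252).

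Genes of stem cell identity and lineage gave no call. Of 15 Hox genes and Meis1, 12 had a positive value (median 0.26), against 55% of all genes tested. Hoxa9, a self-renewal factor, was at 97.0, 75.6 and 99.4 CPM in Vav Cre and 142, 133 and 145 CPM in KDM6B OE (0.63 ± 0.14, adjusted p = 0.165). Of 26 stem cell genes 19 were positive (median 0.24, but 0.04 without Vav Cre 2 and -0.08 with array weights). Hlf, Gata2 and Mecom, transcription factors of stem cells, differed by 0.54 ± 0.15, 0.76 ± 0.21 and 0.43 ± 0.14 (adjusted p = 0.225 to 0.243). The stem cell medians of the controls ran from -0.32 in Vav Cre 2 to 0.31 in Vav Cre 1, wider than the transgenic range of 0.15 to 0.20. Cebpb, a myeloid factor, had the smallest p of 26 lineage factors, at 26.9 to 48.4 CPM against 57.9 to 75.1 CPM (0.87 ± 0.21, adjusted p = 0.199). Of 23 cytokine receptors none was called and 15 were positive (median 0.09). Il1rl1, the interleukin 33 receptor, was at 7.004, 10.9 and 10.9 CPM against 2.77, 2.62 and 1.64 CPM (-1.66 ± 0.29, adjusted p = 0.0843). Il7r, the receptor of early lymphoid cells, was at 16.7 to 23.6 CPM against 8.40 to 11.8 CPM (-0.97 ± 0.23, adjusted p = 0.18). It was the lowest of 12 early lymphoid genes, of which 5 were positive and 7 negative (median -0.06). Pf4, a megakaryocyte chemokine, was at 36.0 to 67.2 CPM against 21.1 to 25.9 CPM (-1.13 ± 0.23, adjusted p = 0.143). It was the lowest of 14 megakaryocyte priming genes, of which 7 were positive and 7 negative (median 0.03). Vcam1, an adhesion molecule that macrophages and stroma also express, was at 1.99, 9.33 and 9.05 CPM against 31.1, 13.7 and 18.5 CPM (1.63 ± 0.48, adjusted p = 0.236). It was the highest of 18 adhesion and homing genes, of which 11 were negative (median -0.15).

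**Figure D4:**
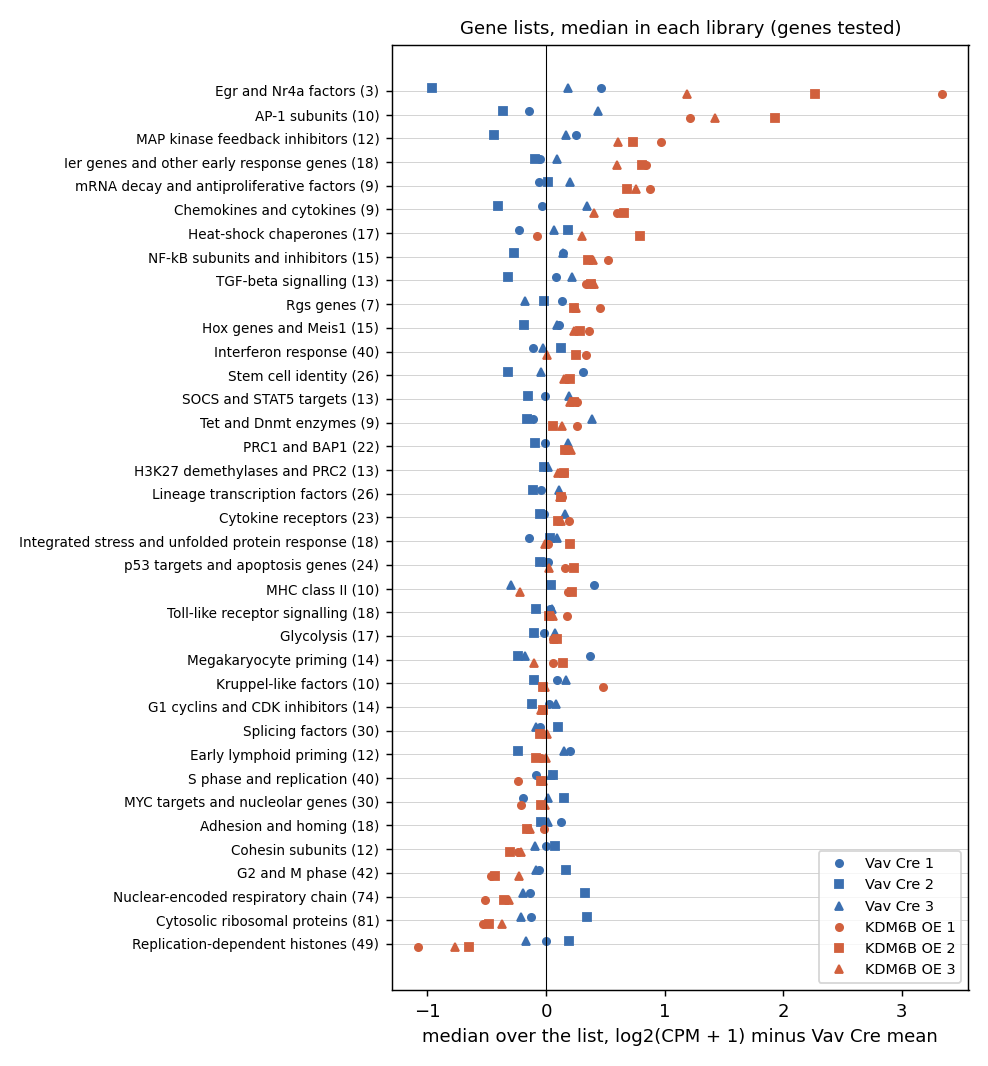
Median over the tested genes of each list in each library, as log2(CPM + 1) minus the Vav Cre mean (x axis; number of genes in brackets), ordered by the list's median difference. The transgenic libraries lie to the right of all controls for the Egr and Nr4a, AP-1, MAP kinase feedback, early response and mRNA decay lists. This is not particular to them: the NF-kB, chemokine, Rgs, SOCS, Hox, p53, lineage factor and H3K27 lists separate upward too, by smaller gaps. The median over all genes tested, not drawn, also separates, at 0.030 to 0.051 against -0.013 to -0.003. Lists to the left of all controls include histones, ribosomal proteins, respiratory chain and G2 and M genes.

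Markers of other blood cells varied between libraries of both groups. The 10 eosinophil genes summed to 585, 33.4 and 25.2 CPM in Vav Cre and to 327, 147 and 769 CPM in KDM6B OE, mostly through the granule proteins Prg2, Epx and Prg3. Vav Cre 1 lay among the transgenic libraries, and Vav Cre 2 and 3 lay below every transgenic library. Of 8 eosinophil genes tested none was called, with a median difference of 1.71. That median ran from 0.64 with array weights to 2.47 with a pseudocount of 0.25. The 11 mast cell and basophil genes were lowest in Vav Cre 3 (290 CPM, against 377 to 621 CPM in the other 5), where Prss34 was at 3.29 CPM. The 8 erythroid genes were highest in Vav Cre 2 (3915 CPM, against 1805 to 2124 CPM), led by Car2 and Car1. The 12 neutrophil genes ran from 2229 to 4883 CPM in Vav Cre and from 2676 to 3742 CPM in KDM6B OE. Sums of the monocyte and macrophage list were 554, 746 and 580 CPM against 600, 650 and 542 CPM, and of the megakaryocyte list 656, 341 and 499 CPM against 662, 607 and 526 CPM. For B cells, T and NK cells, dendritic cells and endothelial or stromal cells the summed levels were 69.5 to 95.8, 223 to 362, 167 to 268 and 140 to 165 CPM over the 6 libraries. Within the B cell list, 5 of 9 genes had levels high enough to test. Pax5, the defining B cell factor, was at 0 in all 6 libraries. Ms4a1 was at 0.351 to 4.34 CPM and Blk at 0.366 to 8.17 CPM, so B cell transcripts were not absent. The part of these markers in the results was not tested.

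The 22 genes were then read in 6 libraries that the comparison did not use, the double lesion (the transgene with Vav Cre and Tet2 flox/flox) against Tet2 KO (Vav Cre and Tet2 flox/flox). Here both groups are labelled with Cre, and no library is shared. All 22 had a difference of the same sign, and 13 of them passed, where 53 of 12666 genes (0.418%) passed in all. Among the 13 were Klf6, Ier5, Egr1, Dusp1, Zfp36, Ier2, Junb, Dusp2, Btg2, Rgs1, Klf2 and Rhob. Egr1 was at 38.3, 59.3 and 42.3 CPM in Tet2 KO and 429, 404 and 673 CPM in the double lesion (3.39 ± 0.20, adjusted p = 0.000119). Dusp1 was at 116, 321 and 366 CPM against 1102, 1782 and 1811 CPM (2.67 ± 0.37, adjusted p = 0.0119). Fos was as far apart as before but spread more widely, from 32.8 to 293 CPM against 716 to 2256 CPM (3.56 ± 0.69, adjusted p = 0.071). Cables1, Hist2h2bb and Xlr3b were close to their spread, at 0.13 ± 0.22, -0.19 ± 0.24 and 0.55 ± 0.80 (adjusted p = 0.819, 0.746 and 0.778), and Socs3 was at 0.70 ± 0.27 (adjusted p = 0.284). Ppp1r15a and Rgs2 were also among those that did not pass, at 1.33 ± 0.34 and 0.78 ± 0.22 (adjusted p = 0.155 and 0.193). Whether a gene differed between these comparisons was not tested. List medians in these libraries were 1.42 for AP-1 subunits, -0.59 for G2 and M genes, -0.28 for ribosomal proteins and 0.08 for histones. The interferon response list changed sign, from 0.25 in the main comparison to -0.23 here, with 8 genes positive and 32 negative. The eosinophil median was 1.73, with 7 genes positive, 1 negative and 1 called. The part of eosinophil transcripts in either comparison was not tested. The number of the 22 that passed ran from 7, without double lesion 2, to 16, without Tet2 KO 2, and was 8 without double lesion 3.

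**Figure D5:**
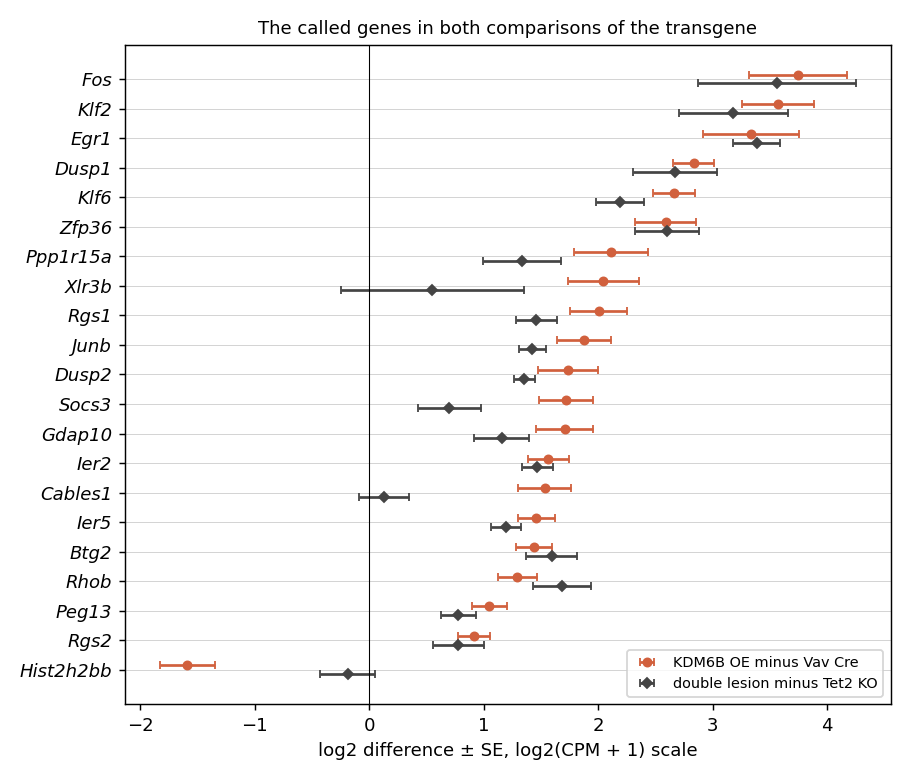
Log2 difference ± SE on the log2(CPM + 1) scale of 21 of the 22 called genes (x axis) in KDM6B OE minus Vav Cre (orange circles) and in double lesion minus Tet2 KO (dark diamonds), from separate fits of 6 libraries each. The marks of Fos, Klf2, Egr1, Dusp1 and Zfp36 lie close together. Those of Xlr3b, Cables1 and Hist2h2bb do not, nor do those of Socs3 (1.72 against 0.70) and Ppp1r15a (2.12 against 1.33).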

How the data were processed

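Poly(A) RNA of sorted LSK cells was amplified from 10 to 20 ng of total RNA with a SMARTer v4 kit and made into Nextera libraries, per the labels' protocols. Per the submitters' processing notes, TopHat2 2.0.10, HTSeq 0.6.0 and edgeR 3.8.6 were used with build mm10; the sources used here give no annotation, strand setting or filter. The deposited table holds a signal unit per gene and library: CPM over the authors' effective library size. Whole reads were recovered from 100% of values (within 1e-06 reads). The table lists 15366 genes, each with at least 10 reads over the 12 libraries.

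The test was limma 3.58.1 on log2(CPM + 1) (mean trend, R 4.3.3, two-sided) on the 6 libraries, for genes above 1 CPM in at least 3 of them, with Benjamini-Hochberg adjustment over all 12549 genes and a threshold of 0.05. A log2 difference of this kind understates the change of low genes. The step was tested on simulated data. Alternatives were other pseudocounts, filters and scalings, array weights, all 12 libraries in the fit, a replicate block, edgeR 4.0.16 and DESeq2 1.42.0 on the recovered reads, and each library left out. Replicates differed by more than sampling noise, so each counted once. Gene positions come from GENCODE vM21 and promoter windows from RefSeq (GRCm38.p6). Members and lists were chosen with earlier results of these data known. Named genes were drawn from a rule: Kdm6b, Tet2, the called genes (20 largest upward, 15 downward), and from each list the called members, or the 3 with the smallest p, and the first 3. Other uncalled genes named here were chosen after their values were seen, as were the uncalled genes followed across settings, so their behaviour there says nothing about stability. Members near 0 enter list counts only. The design had foreseen plain CPM; the test it names fits the unit found. Results for some genes, 1 of the 22 called among them, are not reported here.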

Additional observations from a re-analysis of the deposited data

How the results depend on the processing

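The count of 22 genes moved by over 1.5 times in several settings. It was 79 with all 12 libraries in the fit, 14 with no filter, 1109 with array weights (804 higher and 305 lower), 14 with edgeR and 245 with DESeq2 on whole reads (143 higher and 102 lower), and 34 with the length and GC trend removed. Leaving out 1 library gave 3 to 1295 genes, the lowest without KDM6B OE 2 and the highest without Vav Cre 3. It stayed at 15 to 22 with either pseudocount, a mean above 5, equal totals or median ratio scaling. The replicate block gave 22 genes, 16 of the 22 among them. Same-numbered libraries correlated at 0.18, 0.01 and -0.15, so the numbers are not taken as pairs. Under each setting run, the 22 genes kept their direction; 3 (Dusp1, Klf6 and Klf2) kept the call in every one. The Kdm6b difference did not pass in any setting, and ran from 0.34 to 0.65 with 1 library left out. The difference in Tet2 level ran from -0.19 to 0.08 with 1 library left out, turning to 0.0791 without Vav Cre 3 and to 0.0842 without KDM6B OE 1. The histone median was -0.53 with a pseudocount of 4 and -1.19 with DESeq2; the low level of these genes limits it. With 1 library left out, small list medians ran from -0.06 to 0.17 for Krüppel-like factors and -0.18 to 0.01 for S phase. For Toll-like receptor signalling they ran from 0.04 to 0.16 and for the stress response from 0.01 to 0.20. For H3K27 demethylases and PRC2 the range was 0.07 to 0.20. The causes of these shifts were not tested. Per library, 3 reads are worth at most 0.137 CPM, which is counting error only.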

Other observations

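Single libraries stood apart in genes that the groups do not share. Thbs1, Gbp11 and 1700024P16Rik were among the 10 genes with the largest gap in Vav Cre 3, higher there than in Vav Cre 1 and 2 by 2.74, 3.11 and 3.07 log2 units. The same 3 genes were lower in KDM6B OE 3 than in KDM6B OE 1 and 2 by gaps of -3.18, -3.26 and -3.37. The inducible chaperone Hspa1a was at 0.509, 9.38 and 57.8 CPM in Vav Cre and at 10.7, 78.8 and 22.6 CPM in KDM6B OE, and the groups overlapped.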
